A study of Homo sapiens with 6 samples.

Results

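Peroxisomes are small membrane-bound organelles that shorten very long-chain and branched fatty acids, start the synthesis of ether lipids and break down the hydrogen peroxide that their oxidases make. Their proteins are made in the cytosol: peroxins, the products of the PEX genes, insert the membrane proteins, carry the matrix enzymes across the membrane and recycle the import receptors. Beta oxidation in peroxisomes shortens acyl chains only in part, and the products leave as carnitine esters for mitochondria.

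The 30 genes described here are 12 PEX genes and 18 genes for peroxisomal enzymes, transporters and tethers, among 20660 gene names in the authors' deposited table. They were taken by name, as all rows of the table with that gene name. The set was in part selected on the measured values of this comparison: ACBD5 and AMACR were chosen by their called coding sequences and are given per coding sequence, so their calls are a description and support nothing further.

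RNA was sequenced from FaDu, a widely used hypopharyngeal squamous carcinoma cell line, treated with BB608, a compound known here by its code name alone, or with the solvent DMSO. Each group had 3 biological replicates of this 1 line, and the dose and the time of treatment are not stated in the labels. The table holds 1 value per group and coding sequence in FPKM (fragments per unit length of coding sequence, scaled to the size of the library), so no value per library, no SD and no depth can be given. The table calls each group a subset, without explanation, so whether a value pools all 3 libraries is uncertain. All 10 squamous epithelial markers examined, such as KRT5, KRT14 and TP63, had at least 7.56 FPKM in BB608 and 8.44 FPKM in DMSO, while no fibroblast marker of 6 reached 1 FPKM; CD14 among 5 blood markers and CDH5 among 3 endothelial ones were above it, at up to 4.09 FPKM in BB608 and 3.82 FPKM in DMSO.

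In this set 1 coding sequence of ACBD5 rose and 1 of AMACR fell with BB608, and no other tested coding sequence of the 30 genes passed the authors' threshold. A coding sequence was called where the Cuffdiff q in the authors' deposited table was under 0.05. That holds for 2 of 101 tested coding sequences, from 2 of the 28 genes with any tested one. Among all 34474 tested coding sequences 0.354% were called, 0.142% higher and 0.212% lower in BB608, and 1.06% of 11429 genes had a called one. By the gene sum, the FPKM of a gene's coding sequences added up, 14 genes were higher and 14 lower in BB608. FPKM measures bulk RNA, in which fewer cells that express a gene and less of its RNA per cell cannot be told apart.

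**Figure D1:**
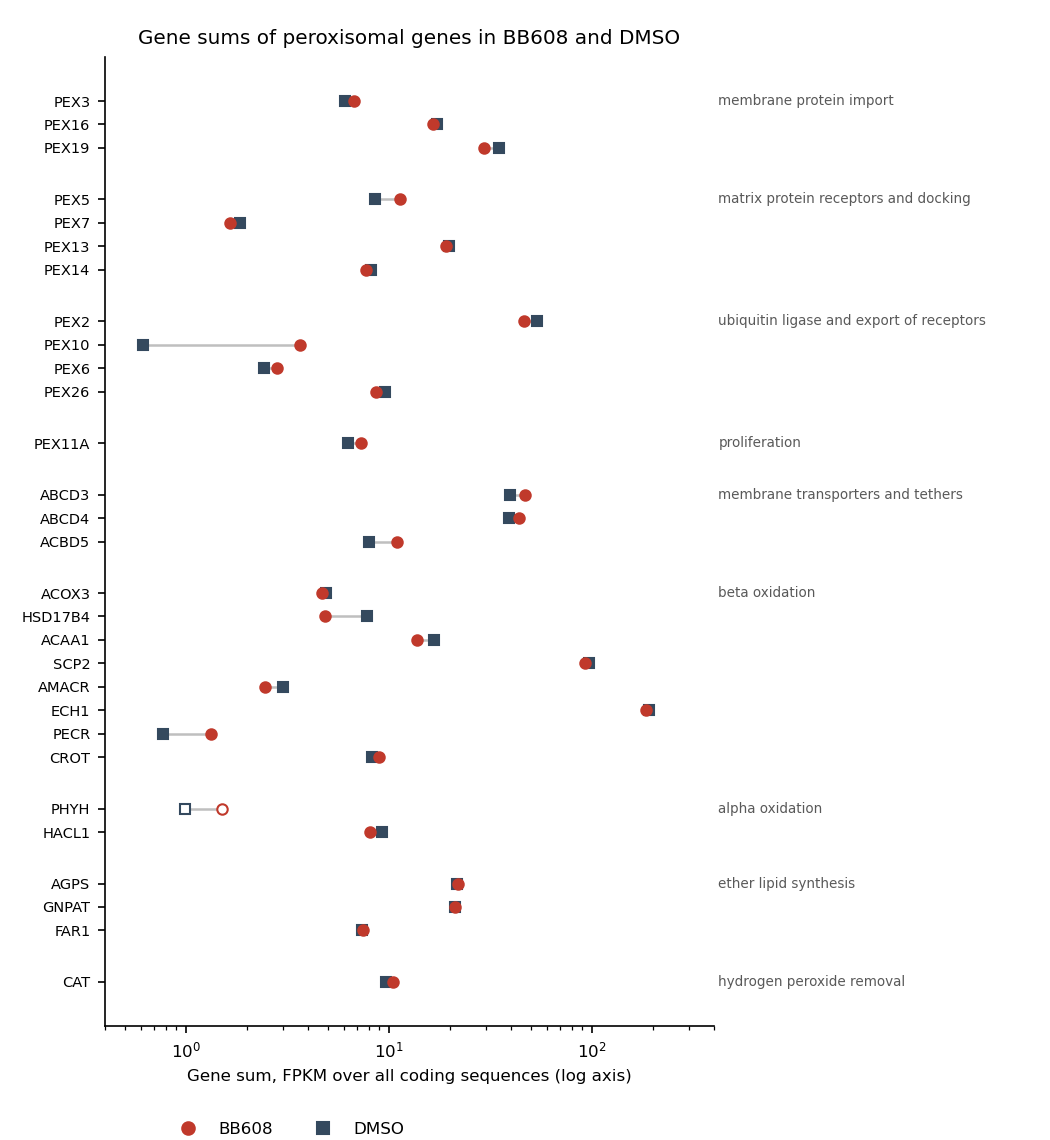
Gene sums in FPKM (log axis) of 29 peroxisomal genes in BB608 (circles) and DMSO (squares), ordered by role; each symbol is 1 pooled value with no error, open symbols mark PHYH, which had no tested coding sequence, and CRAT, near 0 in both groups, is not drawn. Most pairs of symbols lie close together, and PEX10, at 3.66 FPKM in BB608 and 0.612 FPKM in DMSO, has the widest gap.

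ACBD5 encodes a protein of the peroxisomal membrane that binds very long-chain acyl-CoA and tethers peroxisomes to the endoplasmic reticulum through VAPB. The gene lies on chromosome 10 between 27484145 and 27531131 (hg19) and has 7 coding sequences, of which 4 were tested. The called one, listed as P8400, had 3.31 FPKM in BB608 and 0.994 FPKM in DMSO. Its log2 fold of BB608 over DMSO was 1.73, with an implied SE of 0.29, an error derived from Cuffdiff's statistic and p. In the authors' deposited table its p was 5e-05, the smallest there, and its q 0.0154. With a pseudocount of 1 FPKM the log2 fold was 1.11, and a minimum mean of 5 FPKM removes the sequence from testing.

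The most abundant ACBD5 coding sequence, P8405, stood at 5.87 FPKM in BB608 and 5.70 FPKM in DMSO, a log2 fold of 0.04 with an implied SE of 0.25. P8400 made up 30.2% of the ACBD5 gene sum in BB608 and 12.4% in DMSO, and P8405 made up 53.7% in BB608 and 71.3% in DMSO. P8402 was lower in BB608, at 0.341 FPKM against 0.889 FPKM in DMSO, with an implied SE of 1.35 around a log2 fold of -1.38. P8404 had 1.26 FPKM in BB608 and is listed near 0 in DMSO, with a p of 0.251 in the authors' deposited table. The other 3 ACBD5 coding sequences were not tested and were under 0.3 FPKM in both groups. The gene sum of ACBD5 was 10.9 FPKM in BB608 and 7.99 FPKM in DMSO, a log2 fold of 0.45; without P8400 the log2 fold of the sum was 0.13.

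AMACR encodes the racemase that turns branched-chain acyl-CoA into the form peroxisomal beta oxidation accepts, and it is widely used as a tissue marker of prostate cancer. It lies on chromosome 5 in an interval from 33986271 to 34124633 (hg19) that also holds C1QTNF3, a gene with no tested coding sequence and a gene sum of 0.0792 FPKM in BB608. The called AMACR coding sequence, P65232, had 0.215 FPKM in BB608 and 0.965 FPKM in DMSO. The log2 fold was -2.16 with an implied SE of 0.39, and the authors' deposited table gives a q of 0.0154. With a pseudocount of 1 FPKM the log2 fold was -0.69, and the call is lost where testing is limited to sequences that average 1 FPKM or more, since P65232 averages less. It made up 8.77% of the AMACR gene sum in BB608 and 31.9% in DMSO.

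The 2 other tested AMACR coding sequences pointed the opposite way. P65233 had 1.30 FPKM in BB608 and 0.989 FPKM in DMSO, and P65234 had 0.838 FPKM in BB608 and 0.705 FPKM in DMSO, with implied SEs of 0.74 and 0.66 that exceed their log2 folds of 0.40 and 0.25. The remaining 2 AMACR coding sequences were not tested and were lower in BB608. P65235 had 0.0999 FPKM in BB608 and 0.282 FPKM in DMSO, and P65236 was near 0 in BB608 and had 0.0859 FPKM in DMSO. The AMACR gene sum was 2.45 FPKM in BB608 and 3.03 FPKM in DMSO, a log2 fold of -0.30. Without the called sequence the sum was 2.24 FPKM in BB608 and 2.06 FPKM in DMSO, a log2 fold of 0.12. For both genes, then, the direction or size of the gene sum came mainly from 1 coding sequence. Cufflinks divides the reads of overlapping sequences by estimate, and the part of that division in these values was not tested.

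**Figure D2:**
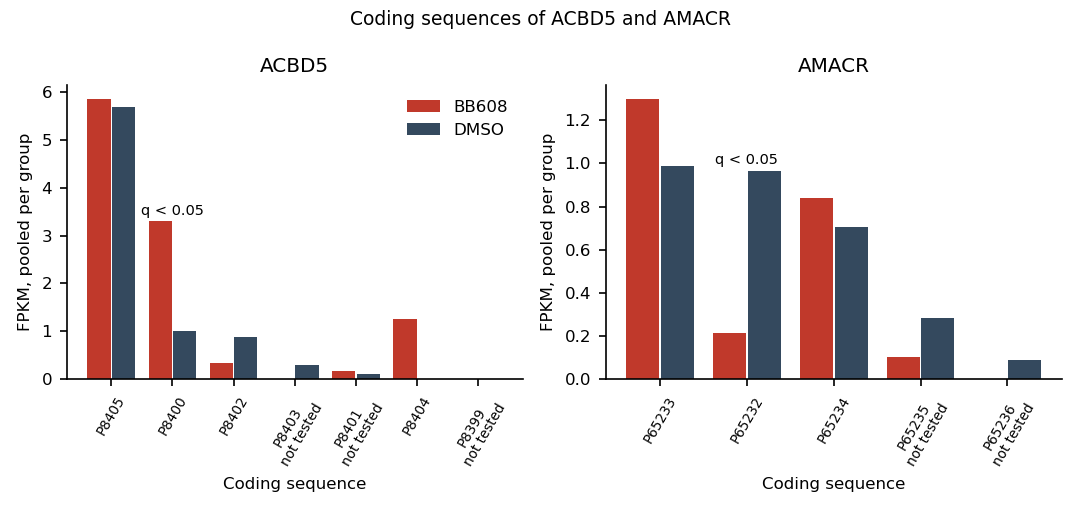
FPKM of every coding sequence of ACBD5 and AMACR, with BB608 left of DMSO in each pair and the pooled value of each group as a bar; those with a q under 0.05 in the authors' deposited table are marked. P8400 of ACBD5 stands at 3.31 FPKM in BB608 and 0.994 FPKM in DMSO beside a level P8405, and P65232 of AMACR at 0.215 FPKM in BB608 and 0.965 FPKM in DMSO beside 2 tested sequences that are higher in BB608.

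Next by p among the tested coding sequences came CROT and ACAA1, which were not called. CROT, the carnitine octanoyltransferase that prepares shortened acyl chains for export, had a coding sequence P71258 at 4.17 FPKM in BB608 and 2.68 FPKM in DMSO. Its log2 fold was 0.63 with an implied SE of 0.23, and the authors' deposited table gives a q of 0.619 and an unadjusted p of 0.00515. The CROT gene sum was 8.97 FPKM in BB608 and 8.28 FPKM in DMSO, a log2 fold of 0.11.

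ACAA1, the thiolase that ends each round of peroxisomal beta oxidation, had a coding sequence P58052 at 3.19 FPKM in BB608 and 8.04 FPKM in DMSO. Its log2 fold was -1.33 with an implied SE of 0.57, and the authors' deposited table gives a q of 0.997 and an unadjusted p of 0.0355. The other ACAA1 coding sequence of similar level, P58050, had 6.41 FPKM in BB608 and 6.73 FPKM in DMSO. P58053, at 2.52 FPKM in BB608 and 1.04 FPKM in DMSO, and P58055, at 1.26 FPKM and 0.331 FPKM, were higher in BB608. The ACAA1 gene sum was 13.8 FPKM in BB608 and 16.7 FPKM in DMSO, a log2 fold of -0.27. In the authors' deposited table P58052, CROT P71258 and the called ACBD5 and AMACR sequences had Cuffdiff p values below 0.05 before adjustment. They make 4 of 101 tested coding sequences, or 3.96%. The share of all tested ones was 3.31%. By gene it was 4 of 28, against 9.49% of all genes with a tested coding sequence. The ACBD5 and AMACR sequences counted here are those the genes were chosen by, so nothing is read from these shares.

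**Figure D3:**
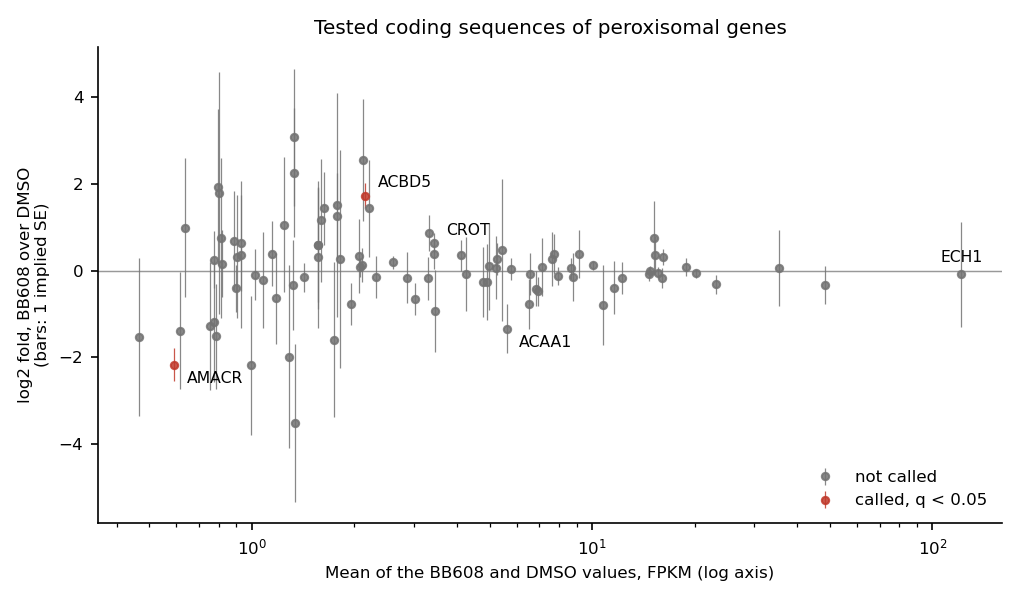
The log2 fold of BB608 over DMSO against the mean of both groups' FPKM (log axis) for 92 tested coding sequences of the peroxisomal genes; bars are 1 implied SE, and 3 with an implied SE over 3 and 6 with none are not drawn. The called ACBD5 and AMACR sequences, by which these genes were chosen, have implied SEs of 0.29 and 0.39 and are shown as a description. Uncalled sequences of low level have short or long bars, PEX6 P69380 among the short. Some abundant sequences have long bars, such as that of ECH1 above 100 FPKM.

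Membrane protein import rests on PEX3, PEX16 and PEX19, of which PEX19 binds new membrane proteins and PEX3 docks it. The PEX19 gene sum was 29.4 FPKM in BB608 and 35.0 FPKM in DMSO, that of PEX16 16.4 FPKM in BB608 and 17.3 FPKM in DMSO, and that of PEX3 6.73 FPKM in BB608 and 6.07 FPKM in DMSO. None of their 13 tested coding sequences was called. The smallest p in the authors' deposited table among them was 0.0538, for PEX16 P13001, at 4.28 FPKM in BB608 and 2.34 FPKM in DMSO.

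PEX5 and PEX7 are the soluble receptors that recognise the targeting signals of matrix enzymes, and PEX13 and PEX14 form the docking site. PEX13 and PEX14 had close sums in the 2 groups, at 19.2 FPKM in BB608 and 19.8 FPKM in DMSO for PEX13 and 7.68 FPKM in BB608 and 8.20 FPKM in DMSO for PEX14. PEX7 was low, at 1.65 FPKM in BB608 and 1.85 FPKM in DMSO. The PEX5 sum was 11.4 FPKM in BB608 and 8.52 FPKM in DMSO, a log2 fold of 0.42, spread over 16 coding sequences of which 7 were tested.

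No PEX5 coding sequence was called, and those it leaned on differed between the groups. P15213 had 2.38 FPKM in BB608 and 0.282 FPKM in DMSO, and P15221 had 2.38 FPKM in BB608 and is listed near 0 in DMSO. By contrast P15215 had 0.216 FPKM in BB608 and 2.46 FPKM in DMSO. The implied SEs of P15213 and P15215 were 1.58 and 1.82, around log2 folds of 3.08 and -3.51. Cuffdiff's p in the authors' deposited table was 0.259 for P15213, 0.252 for P15215 and 0.0889 for P15221. For P15213 and P15215 the implied SE is smaller than that p would give.

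Used receptors are marked with ubiquitin by a ligase that includes PEX2 and PEX10 and pulled out of the membrane by an ATPase that includes PEX6, which PEX26 anchors. PEX2 had the highest sum of the 12 PEX genes, 46.5 FPKM in BB608 and 53.6 FPKM in DMSO, and all 3 of its coding sequences were lower in BB608 without a call. PEX6 had 2.80 FPKM in BB608 and 2.43 FPKM in DMSO, and PEX26 had 8.66 FPKM in BB608 and 9.54 FPKM in DMSO. PEX10 had the largest gene sum fold of the 28 tested genes, 2.58 on the log2 scale, from 3.66 FPKM in BB608 and 0.612 FPKM in DMSO; with a pseudocount of 1 FPKM it was 1.53. Its main coding sequence, P3731, had 60.1% of the sum in BB608 and 75.2% in DMSO, where its level was 0.461 FPKM; its log2 fold was 2.26, but the implied SE was 1.49 and the authors' deposited table gives it a p of 0.244. PEX11A, which acts in the elongation and division of peroxisomes, had 7.29 FPKM in BB608 and 6.27 FPKM in DMSO.

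The 3 genes grouped as membrane transporters and tethers all had higher gene sums in BB608. So did 57.6% of 10859 kept genes, those with a tested coding sequence and a sum that reached 1 FPKM in either group. ABCD3, which takes branched and long-chain acyl-CoA into peroxisomes, had 46.9 FPKM in BB608 and 39.5 FPKM in DMSO, a log2 fold of 0.25. ABCD4, of the same transporter family but known for cobalamin export from lysosomes, had 44.0 FPKM in BB608 and 39.1 FPKM in DMSO, a log2 fold of 0.17. ACBD5 had 0.45. Of the 16 tested coding sequences in this group 1 was called, against 0.354% of all tested ones; it is the ACBD5 sequence the gene was chosen by, so nothing is read from that count.

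The group of beta oxidation and carnitine transfer was taken broadly, as 9 genes, and also holds the reductase gene PECR. In this group 8 genes had a tested coding sequence and 6 of these had lower sums in BB608. Of all 10859 kept genes 4606 had lower sums. The 6 log2 folds were -0.04 for ECH1, -0.06 for ACOX3, -0.07 for SCP2, -0.27 for ACAA1, -0.30 for AMACR and -0.69 for HSD17B4. AMACR had 0.12 without the sequence it was chosen by, so no shared direction is read from this count. ECH1, a dienoyl-CoA isomerase, was the most abundant member, at 185.7 FPKM in BB608 and 190.6 FPKM in DMSO, and SCP2, a sterol carrier and thiolase, followed with 92.8 FPKM in BB608 and 97.3 FPKM in DMSO. The sum of HSD17B4, the bifunctional enzyme of the middle steps, was 4.85 FPKM in BB608 and 7.83 FPKM in DMSO, a log2 fold of -0.69. That of its main coding sequence, P64092, was -0.93 with an implied SE of 0.94, from 2.38 FPKM in BB608 and 4.53 FPKM in DMSO. P64090 was also lower in BB608, at 0.476 FPKM against 1.07 FPKM in DMSO. P64096 went the other way, at 1.68 FPKM in BB608 and 0.805 FPKM in DMSO, with an implied SE of 1.56. P64093 and P64097 are listed near 0 in BB608, had 0.683 FPKM and 0.634 FPKM in DMSO, and have no implied SE.

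The acyl-CoA oxidase gene ACOX3 had 4.71 FPKM in BB608 and 4.91 FPKM in DMSO. PECR, an enoyl-CoA reductase, had 1.33 FPKM in BB608 and 0.769 FPKM in DMSO; its only tested coding sequence had a log2 fold of 0.16 with an implied SE of 0.77. CRAT, the carnitine acetyltransferase, had no tested coding sequence, and its sum was near 0 in BB608 and 0.0799 FPKM in DMSO, so no fold is given.

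Alpha oxidation removes 1 carbon from branched acids such as phytanic acid. PHYH, the hydroxylase of this path, had no tested coding sequence, with a sum of 1.52 FPKM in BB608 and 0.988 FPKM in DMSO. HACL1, the lyase of the same path, had 8.11 FPKM in BB608 and 9.27 FPKM in DMSO. The HACL1 coding sequence that led in BB608, P57869, had 3.88 FPKM there and 2.96 FPKM in DMSO, and the one that led in DMSO, P57875, had 2.34 FPKM in BB608 and 3.69 FPKM in DMSO; neither was called.

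The 3 enzymes that start ether lipid synthesis had gene sums with the smallest folds of any role. AGPS had 22.0 FPKM in BB608 and 21.7 FPKM in DMSO, GNPAT had 21.1 FPKM in both groups, and FAR1, the reductase that supplies fatty alcohol, had 7.44 FPKM in BB608 and 7.37 FPKM in DMSO. CAT, catalase, has 1 coding sequence, at 10.5 FPKM in BB608 and 9.65 FPKM in DMSO.

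Precision set how much a missed threshold says. Of the 28 most abundant tested coding sequences, 1 per gene, 10 had an implied SE under 0.25 and 10 had one over 0.5. Bounds of 2 implied SE around the log2 fold ran from -0.10 to 0.35 for CAT, from -0.27 to 0.25 for AGPS and from -0.27 to 0.15 for GNPAT. For ECH1 they ran from -2.50 to 2.33 despite 117.7 FPKM in BB608 and 124.9 FPKM in DMSO, and for PEX10 from -0.71 to 5.23. The PEX10 bounds are too narrow, since the implied SE of that low row is smaller than its Cuffdiff p of 0.244 would give. ECH1 has 8 tested coding sequences at a locus shared with HNRNPL and AC104534.3. In all 16 of the 30 genes share their locus with another gene name, and the sources do not say whether counting used the strand.

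The division of a gene's FPKM among its coding sequences was described by the share of the gene sum that would have to move between coding sequences to turn the DMSO division into the BB608 one. Over the 24 kept genes with at least 2 tested coding sequences this share had a median of 14.5%, from 1.04% for PEX26 to 45.4% for PEX5, against a median of 9.97% and quartiles of 4.98% and 17.7% over 7871 such genes of the table. PEX10 had 30.5% and HSD17B4 29.5%. AMACR had 31.2% and ACBD5 29.4%, which follow in part from the called sequences these genes were chosen by. The most abundant coding sequence was the same in both groups in 20 of the 24, or 83.3%, against 82.4% of all; the exceptions were PEX5, ACAA1, HACL1 and ABCD4. In 18 of the 24 tested coding sequences pointed in both directions, against 79.6% of all such genes. The share comes from single pooled values, and neither level nor number of sequences was matched.

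**Figure D4:**
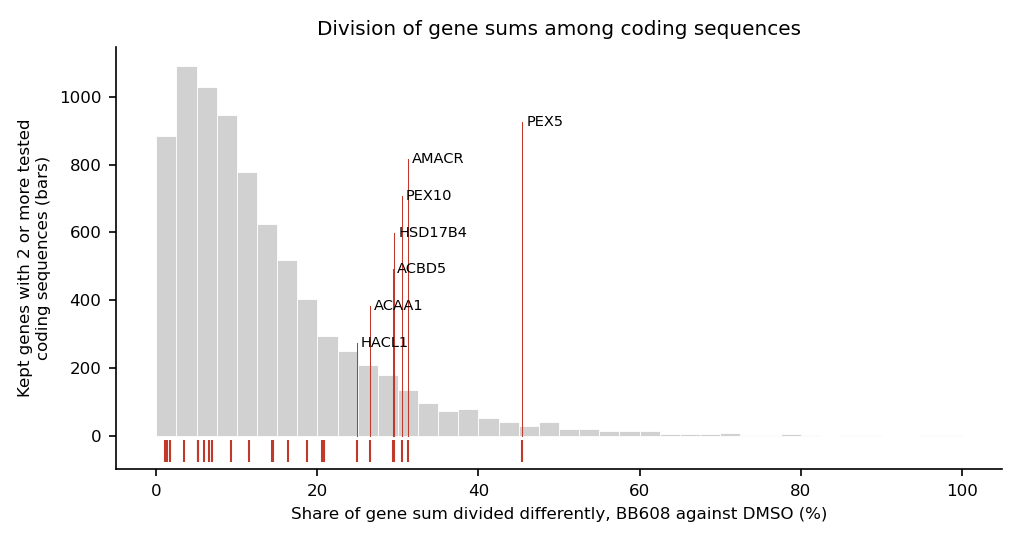
Share of the gene sum, in percent, that is divided differently among coding sequences in BB608 than in DMSO; grey bars count the 7871 kept genes with at least 2 tested coding sequences, and red ticks below 0 are the 24 peroxisomal genes, the highest 7 named. PEX5, at 45.4%, lies furthest to the right; ACBD5 and AMACR, at 29.4% and 31.2%, were chosen by a coding sequence whose share differs and are shown as a description.

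As a whole the set lay near the rest of the table. Over the 28 kept genes, those with a tested coding sequence and a gene sum that reached 1 FPKM in either group, the gene sums had a median log2 fold of -0.02, against 0.03 over 10859 kept genes. Gene sums lay within 0.25 log2 of 0 for 20 of the 28, or 71.4%, against 70.1% of all, and beyond 0.5 for 3, or 10.7%, against 11.6%. PEX10, PECR and HSD17B4 are those 3. With sums of 0.612 FPKM and 0.769 FPKM in DMSO, PEX10 and PECR were kept only through BB608, where they are higher. The filter thus favoured them, and nothing is read from the share beyond 0.5. Summed over the 12 PEX genes, FPKM came to 161.3 in BB608 and 169.2 in DMSO, and over the 18 other genes to 487.2 in BB608 and 486.2 in DMSO.

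Other peroxisomal genes, 40 in number, held no called coding sequence by Cuffdiff's q among 111 tested, and 1 at an unadjusted p under 0.05. That 1 was PXMP4, a peroxisomal membrane protein, at 3.92 FPKM in BB608 and 2.30 FPKM in DMSO with a p of 0.0497 in the authors' deposited table. FIS1, a fission adaptor of peroxisomes and mitochondria, had a coding sequence at 3.30 FPKM in BB608 and 0.542 FPKM in DMSO. Its Cuffdiff p was 0.05585, and the FIS1 gene sum was 41.9 FPKM in BB608 and 35.8 FPKM in DMSO. MLYCD, the malonyl-CoA decarboxylase, had 1.13 FPKM in BB608 and 0.377 FPKM in DMSO, with an implied SE of 0.70 around a log2 fold of 1.59. The authors' deposited table gives MLYCD a Cuffdiff q of 0.997 and an unadjusted p of 0.068. VAPB, the partner of ACBD5 and named here after its value was seen, had a sum of 27.9 FPKM in BB608 and 23.9 FPKM in DMSO. The list's 30 kept genes had a median log2 fold of 0.00, with 15 higher and 15 lower.

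The lists of mitochondrial fatty acid oxidation, PPAR factors with their partners and targets, and pexophagy, the degradation of peroxisomes by autophagy, held 56, 34 and 38 tested coding sequences, of which 0 passed the q of Cuffdiff. At an unadjusted p under 0.05 they held 1, 1 and 2, and their median log2 folds were 0.07, 0.06 and -0.02. In mitochondrial oxidation 12 of 16 kept genes were higher in BB608, against 57.6% of all kept genes. The dehydrogenase gene ACADS had a coding sequence at 2.79 FPKM in BB608 and 3.75 FPKM in DMSO, with a p of 0.0104 in the authors' deposited table, while its gene sum was 4.04 FPKM in BB608 and 3.75 FPKM in DMSO. The isomerase gene ECI1 had a coding sequence at 28.2 FPKM in BB608 and 24.2 FPKM in DMSO, with a Cuffdiff p of 0.0721.

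The PPAR list shares some members with the other lists. PPAR alpha is the nuclear receptor best known for inducing peroxisomal oxidation genes in rodent liver. PPARGC1B, a coactivator of this receptor family, had a coding sequence at 0.790 FPKM in BB608 and 0.380 FPKM in DMSO, a log2 fold of 1.06 with an implied SE of 0.31, and the authors' deposited table gives a q of 0.640. MED1, a Mediator subunit that binds nuclear receptors, had 12.8 FPKM in BB608 and 15.5 FPKM in DMSO for 1 coding sequence, with a Cuffdiff p of 0.0844. Of the autophagy genes, MAP1LC3B had a coding sequence at 4.78 FPKM in BB608 and 7.13 FPKM in DMSO, with a p of 0.0182 in the authors' deposited table. GABARAPL2 had one at 53.8 FPKM in BB608 and 36.0 FPKM in DMSO, with a Cuffdiff p of 0.0283 and q of 0.997. The GABARAPL2 gene sum was 82.2 FPKM in BB608 and 89.2 FPKM in DMSO.

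**Figure D5:**
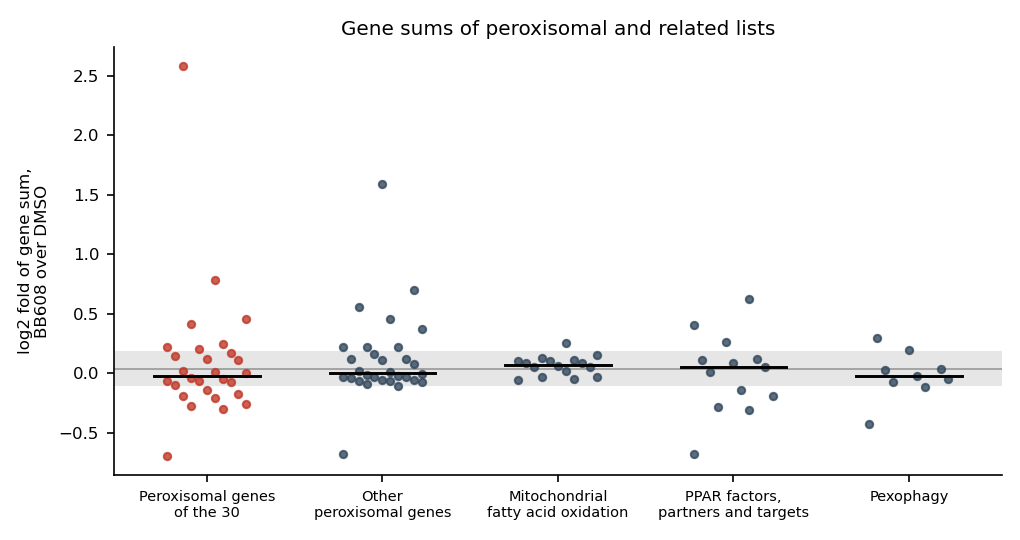
The log2 fold of the gene sum, BB608 over DMSO, for each kept gene of the 30 peroxisomal genes (left) and of 4 related lists; black lines are list medians, the grey band spans the quartiles of all 10859 kept genes and the grey line is their median of 0.03. List medians lie between -0.02 and 0.07. The highest point is PEX10, at 2.58, which was kept only through its sum in BB608.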

How the data were processed

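Per the submitters' processing notes, reads were processed with TopHat2 2.0.11, Cufflinks 2.2.1 and Cuffdiff on hg19, with a gene annotation the notes do not name. The libraries were stranded total RNA without ribosomal RNA, per the labels' protocols. The authors deposited 1 table of 82428 coding sequences with a pooled FPKM value per group and with Cuffdiff's p-value, q-value and test statistic, a score. The table names its groups BB608_subset and DMSO_subset and does not say which libraries a subset holds. The q-value in the authors' deposited table matched a Benjamini-Hochberg adjustment over 34474 tested rows to within 5.23e-07.

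From these values log2 ratios and gene sums were computed with Python 3.11.15 and pandas 2.3.3, checked on simulated data. A gene was kept with a tested row, no failed row, 1 gene name and a sum that reached 1 FPKM in either group. The implied SE is the log2 fold over the statistic and over 1.73, the median ratio of the normal quantile of p to the statistic over 29220 rows (quartiles 1.63 and 1.77); it was left out where a group was at or under 0.001 FPKM. It approximates the spread the authors' model estimated, and for some rows of low level it is smaller than Cuffdiff's p would give. Gene sums have no implied SE. Of 122 calls, 112 sit at the smallest p.

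All 30 members were named, with each list's rows of smallest p. The members and lists were chosen with earlier results of these data known. Limma on values per library was planned and could not be run on pooled values. A planned search for targeting signals was not run, since protein sequences were not used here.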

Additional observations from a re-analysis of the deposited data

How the results depend on the processing

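The count of 2 called coding sequences became 1 (ACBD5) with the q recomputed over those with a mean of at least 1 FPKM, which removes the AMACR sequence by construction, 0 with at least 5 FPKM, which removes both, and 4 at an unadjusted p under 0.05. Over the whole table the 122 calls became 121 and 83. A pseudocount of 1 FPKM gave log2 folds of 1.11 for ACBD5 P8400, -0.69 for AMACR P65232, and 1.53 for the PEX10 gene sum, since it shrinks low values.

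Of the 28 gene sum folds, all stayed within 1 implied SE of the most abundant coding sequence with a pseudocount, with tested coding sequences only, and with the median log2 ratio of all kept genes, 0.03, set to 0. With the most abundant coding sequence in place of the sum, 25 did, and ACBD5, HACL1 and CROT moved further; 7 changed sign, AMACR and HACL1 among them. The number of genes higher in BB608 ran from 11 to 14. The implied SE used as the limit is that of 1 coding sequence and not of the sum. Staying within it therefore does not show that a sum was stable. With the median set to 0 every fold moved by 0.03, less than the smallest implied SE of 0.105, so that outcome was fixed beforehand. PECR counted as staying at log2 folds of 0.79 for the sum and 0.16 with tested coding sequences only. PEX10 did so at 2.58 and, with a pseudocount, 1.53.

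No paired analysis was possible because values per library are pooled within each group. Leaving out each library was not run for the same reason. Sequencing depth is unknown.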
